A study of Mus musculus with 12 samples.

Results

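Hox genes encode homeodomain transcription factors that mark position along the body axis, and 36 of them were measured here among 22180 genes on arrays of mouse colon RNA. Members were taken by symbol alone: a probe set belonged to the set where the platform annotation gave it exactly 1 symbol, made of Hox, a cluster letter from a to d and a number, and the brightest probe set stood for each gene. No measured value decided membership. Hoxa11 and Hoxd4 were named only on probe sets that carry a second symbol and are not analysed as members. The members comprised 9 genes of the HoxA cluster, 10 of HoxB, 9 of HoxC and 8 of HoxD. By paralog group, the number in the gene's name, 7 were anterior (groups 1 to 3), 14 central (groups 4 to 8) and 15 posterior (groups 9 to 13).

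The study compared the colon of mice of 4 genotypes, with 3 arrays each and 12 in all. WT mice carried both Il10 and the gene of STING (IL10+/+ STING+/+), SKO mice lacked STING only (IL10+/+ STING-/-), IL10KO mice lacked IL-10 only (IL10-/- STING+/+), and DKO mice lacked both (IL10-/- STING-/-). IL-10 damps immune responses, and its loss can lead to colitis in mice; STING is an adaptor that relays the sensing of cytosolic DNA. The sources used here do not give age, strain background, colon segment or dissection. They also do not say whether each of the 3 samples of a genotype is a different animal, so the p-values measure only the spread among samples, which may be technical. The labels name the tissue as colon with no sorting of cells, and in such RNA fewer cells of a type and less RNA per cell cannot be told apart.

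Hox genes lie in 4 clusters, and within a cluster the gene order follows the body axis: genes of low number are active from the head end onwards, genes of high number only towards the tail. In the gut the highest numbers, of paralog group 13, mark the hindgut, and adult colon keeps much of this regional pattern in its epithelium, muscle and connective tissue. The proteins bind DNA together with TALE cofactors of the Pbx and Meis families, Polycomb and Trithorax complexes keep the clusters silent or active, retinoic acid and Cdx factors set their borders, and microRNAs encoded inside the clusters (miR-10 and miR-196) target Hox messages.

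The sequences of these microRNAs are shown because they are products of the clusters themselves and fall into 2 seed families. Mature sequences are from RefSeq (GRCm38.p6), 5′ to 3′, with the seed (bases 2 to 8) in capitals.
miR-10a-5p, HoxB cluster, chr11:96317186-96317208, + strand: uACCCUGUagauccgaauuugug
miR-10b-5p, HoxD cluster, chr2:74726074-74726096, + strand: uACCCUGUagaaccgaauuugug
miR-196a-5p, HoxB cluster (Mir196a-1), chr11:96265187-96265208, + strand, and HoxC cluster (Mir196a-2), chr15:102973365-102973386, + strand: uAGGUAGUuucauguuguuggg
miR-196b-5p, HoxA cluster, chr6:52230129-52230150, − strand: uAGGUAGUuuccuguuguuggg
The miR-10 pair shares the seed ACCCUGU and differs outside it by U12A, and the miR-196 pair shares AGGUAGU and differs by A12C, with positions counted from 1 at the 5′ end and miR-10a or miR-196a as the reference.

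Promoter sequences, 250 bases before to 50 after the gene start, were found in the RefSeq table (GRCm38.p6) for 20 of the 36 members, with 22 promoters in all. Hoxa6 is shown because its signal passed the test below, and Hoxa13 and Hoxd13 because they end their clusters. Capitals mark GGGCGG on either strand, overlaps included, the GC box that Sp1-type factors recognise.
Hoxa6, chr6:52208623-52208922, − strand: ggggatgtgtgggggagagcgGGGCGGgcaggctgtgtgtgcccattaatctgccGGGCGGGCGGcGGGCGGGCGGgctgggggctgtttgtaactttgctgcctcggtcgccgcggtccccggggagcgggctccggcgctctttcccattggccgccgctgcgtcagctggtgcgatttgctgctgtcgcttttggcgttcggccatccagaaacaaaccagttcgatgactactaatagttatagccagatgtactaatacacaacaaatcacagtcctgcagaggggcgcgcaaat
Hoxa13, chr6:52260831-52261130, − strand: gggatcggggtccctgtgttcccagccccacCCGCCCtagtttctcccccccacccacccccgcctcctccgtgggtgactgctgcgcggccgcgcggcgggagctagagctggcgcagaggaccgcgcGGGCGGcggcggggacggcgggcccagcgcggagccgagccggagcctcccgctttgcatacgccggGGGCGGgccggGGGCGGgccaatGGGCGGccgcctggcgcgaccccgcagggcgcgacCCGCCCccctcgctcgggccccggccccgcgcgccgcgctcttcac
Hoxd13, chr2:74667975-74668274, + strand: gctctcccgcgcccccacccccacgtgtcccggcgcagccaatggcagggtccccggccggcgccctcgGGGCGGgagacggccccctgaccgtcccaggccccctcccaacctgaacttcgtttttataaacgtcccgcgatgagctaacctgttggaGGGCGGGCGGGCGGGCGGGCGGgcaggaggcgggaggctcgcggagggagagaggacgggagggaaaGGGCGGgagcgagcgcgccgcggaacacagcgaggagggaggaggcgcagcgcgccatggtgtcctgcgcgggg
These windows are rich in CpG, the dinucleotide of CpG islands. The Hoxa6 window held 26 CpG and 5 GC boxes, the Hoxa13 window 45 CpG and 6 GC boxes at 81% G and C, and the Hoxd13 window 37 CpG and 7 GC boxes at 74.3% G and C. The median over the 22 Hox promoters was 17 CpG, against 7 over all 32851 promoters of the table. At least 1 GGGCGG stood in 10 of the 22 Hox promoters (45.5%) and in 35.7% of all promoters. The letters TGATTGAT, a Pbx-Hox type site searched on both strands, occurred in 2 Hox promoters, those of Hoxa2 and Hoxd11 (9.09%, against 0.746% of all). CCATAAA, a Cdx type site searched the same way, occurred in 0 of 22 (2.75% of all). Such matches describe letters in a window of fixed length and no binding was measured.

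Differences between the arrays touch every comparison below. The gene of STING, Sting1, read 7.51 and 6.40 (log2 signal) in WT replicates 1 and 2 and 6.87, 8.09 and 7.33 in the IL10KO samples, and 4.13 to 4.4 in the 6 STING-/- samples. The library labelled WT replicate 3 read 4.56, which goes against its label, so results against WT are also given without it. The Il10 probe set does not check the IL-10 label: it read 3.59 to 3.82 in the IL10+/+ samples and 4.33 to 5.47 in the IL10-/- samples, and the labels do not say whether it lies in the deleted part. The spread of signals within an array was narrowest in IL10KO replicate 1 (interquartile range 2.75) and SKO replicate 2 (2.91), against 3.11 to 3.51 on the others.

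Each member was first set against its own mean over the 12 arrays, because signals of different probe sets are not on a common scale and an absolute ladder from Hox1 to Hox13 cannot be read from them. The range from lowest to highest array had a median of 0.85 over the members and 0.79 over all genes, and exceeded 1 for 12 of the 36 members and 27.3% of all genes. It ran from 0.40 for Hoxa9 and 0.41 for Hoxa7 to 1.38 for Hoxd1 and 1.70 for Hoxd12. The average distance of the 36 members from their means was 0.14 to 0.28 on 11 arrays and 0.41 on IL10KO replicate 1, the array with the narrowest spread of signals.

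**Figure D1:**
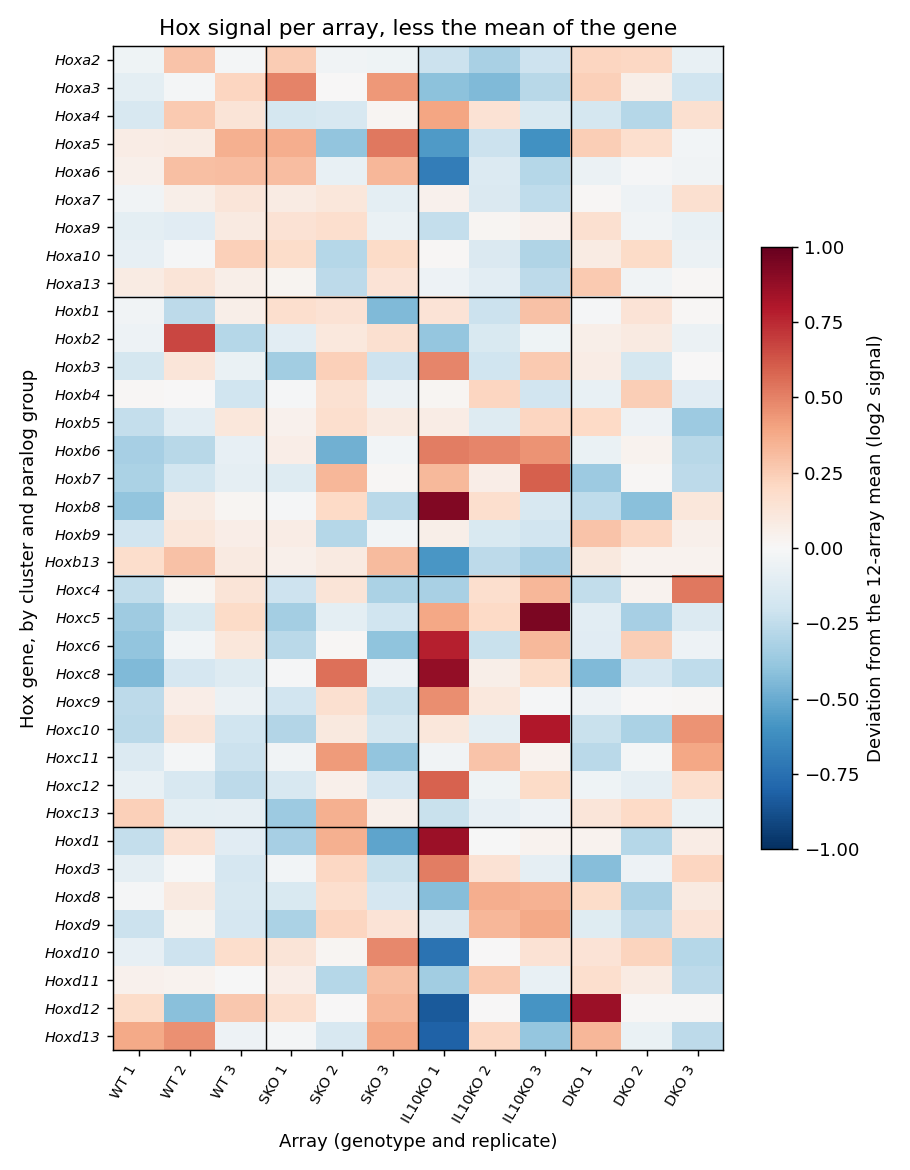
Heat map of the 36 Hox genes (vertical axis, ordered by cluster and paralog group) on the 12 arrays (horizontal axis); colour gives the log2 signal less the gene's mean over the 12 arrays. Colours are on average strongest in IL10KO replicate 1, followed by IL10KO replicate 3, while IL10KO replicate 2 lies within the range of the other genotypes. Hoxa2 and Hoxa3, the anterior HoxA genes measured, lie below their own means in every IL10KO sample. Neither the anterior genes as a whole nor the posterior genes as a whole are coloured alike across a genotype.

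A difference in the sampled segment would be read from posterior and anterior members moving in opposite directions. The mean deviation of the 15 posterior members less that of the 7 anterior members was therefore taken per array. It was 0.08, −0.12 and 0.05 in WT, −0.05, −0.13 and 0.21 in SKO, −0.32, 0.19 and −0.04 in IL10KO, and 0.09, 0.01 and 0.02 in DKO. The 4 genotypes overlapped on this measure, and the lowest and the second highest of all 12 values both came from IL10KO samples. As mean ± SD (n = 3 each) it was 0.00 ± 0.11 in WT, 0.01 ± 0.17 in SKO, −0.06 ± 0.26 in IL10KO and 0.04 ± 0.04 in DKO. The difference between genotypes was −0.06 for IL10KO against WT, 0.10 for DKO against IL10KO, 0.04 for DKO against WT, 0.01 for SKO against WT and 0.03 for DKO against SKO, each smaller than the pooled SD between replicates of 0.17. No p is given for this score over members, and overlap on it does not show that the same segment was sampled. Of the anterior members only Hoxa2 lies above the median signal of all genes, whereas posterior members lie on both sides of it. A change that goes with signal level, as described below, therefore enters the score as well. Without the library labelled WT replicate 3 or any other single array, the IL10KO against WT value lay between −0.18 and 0.07.

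**Figure D2:**
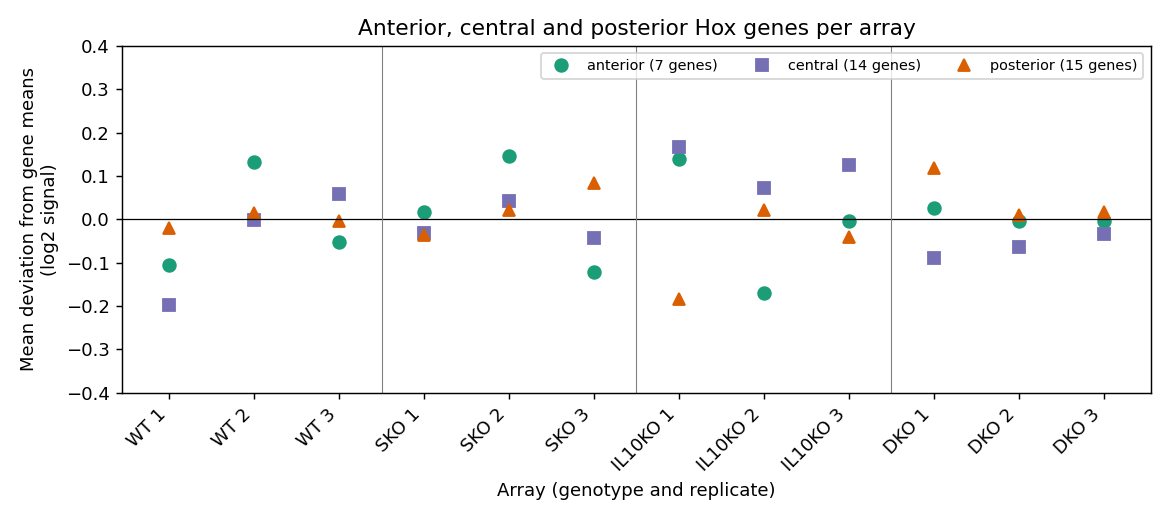
Mean deviation of the anterior (7), central (14) and posterior (15) Hox genes from their own 12-array means, in log2 signal, for each array (horizontal axis). Posterior genes lie between −0.18 and 0.12 and anterior genes between −0.17 and 0.15, with every genotype overlapping the others, while central genes are at 0.07 to 0.17 in the 3 IL10KO samples and −0.09 to −0.03 in the 3 DKO samples.

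Central members separated the IL10KO samples from the others. Their mean deviation was 0.12 ± 0.05 in IL10KO and −0.06 ± 0.03 in DKO (SD, n = 3 each), without overlap, and −0.05 ± 0.13 in WT and −0.01 ± 0.05 in SKO. WT values ran from −0.20 to 0.06, and all 3 IL10KO samples (0.07, 0.12 and 0.17) lay above them, the nearest pair being 0.06 and 0.07. Position was not separated from signal level here: of the central members only Hoxa4 to Hoxa7 and Hoxb5 lie above the median signal of all genes. The mean deviation of the 22 members below it was 0.05 to 0.19 in IL10KO and −0.06 to 0.04 in DKO. It was −0.17 to −0.02 in WT and −0.12 to 0.15 in SKO. The central set holds both the gene with the largest rise and the gene with the largest fall in IL10KO, described next.

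In IL10KO against WT, the loss of IL-10 with STING present, 3 of the 36 Hox genes were called different. Hoxb6 was higher (2.78% of members, beside 3.12% of all genes), and Hoxb13 and Hoxa6 were lower (5.56%, beside 5.01% of all genes). The test was limma's moderated test on all 12 arrays with Benjamini-Hochberg adjustment over all 22180 genes, and a gene was called at an adjusted p under 0.05. The 3 members are 8.33% of the set, beside 8.14% called over all genes, so the Hox genes were called at the background rate. Differences of the members ranged from −0.63 (Hoxa5) to 0.71 (Hoxb6) with a median of 0.08, against 0.03 for all genes. An unadjusted p under 0.05 was reached by 11 members (30.6%) and by 26.2% of all genes.

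Hoxb6, a central gene of the HoxB cluster, read 4.94, 4.99 and 5.19 in WT and 5.78, 5.75 and 5.72 in IL10KO. All 3 IL10KO samples lay above every WT sample, with a spread of less than 0.10 among themselves. The difference was 0.71 ± 0.15 (SE; limma adjusted p = 0.0143). The call held when the library labelled WT replicate 3 was left out. It was lost without WT replicate 1 (adjusted p = 0.0567) or WT replicate 2 (0.0583).

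Hoxb13, the last gene of the HoxB cluster and a marker of the distal end of the hindgut, read 8.08, 8.20 and 8.0 in WT and 7.32, 7.65 and 7.57 in IL10KO. The groups did not overlap. The fall was −0.58 ± 0.13 (SE; limma adjusted p = 0.0181). Omitting the library labelled WT replicate 3 left the call in place, and it was lost without WT replicate 1 (0.0545), WT replicate 2 (0.0802) or IL10KO replicate 1 (0.0584).

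Hoxa6, a central gene of the HoxA cluster whose promoter is printed above, read 7.24, 7.49 and 7.50 in WT and 6.50, 7.05 and 6.91 in IL10KO. Again the groups did not overlap, and IL10KO replicate 1 was lowest. The fall was −0.59 ± 0.16 (SE; limma adjusted p = 0.0413). Leaving out the library labelled WT replicate 3 gave an adjusted p of 0.13, leaving out IL10KO replicate 1 gave 0.136, and the call held in 8 of 21 alternative settings. Neighbours on the HoxA cluster took the same sign, Hoxa5 at −0.63 (adjusted p = 0.0782) and Hoxa7 at −0.17, without passing the test.

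**Figure D3:**
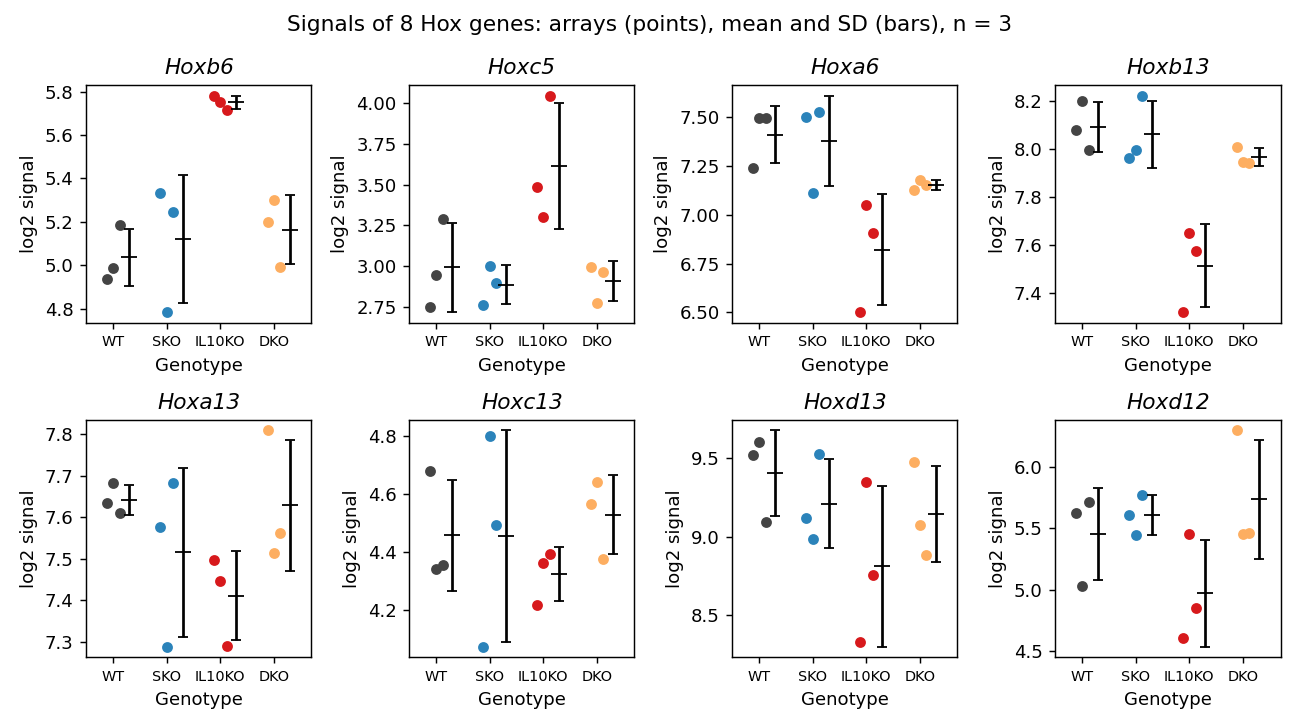
log2 signal (vertical axes, not starting at 0) of 8 Hox genes in the 4 genotypes; points are arrays, bars the mean and SD, n = 3. Hoxb6 lies at 5.72 to 5.78 in IL10KO and at or below 5.33 in every other sample, whereas Hoxb13 lies at 7.32 to 7.65 in IL10KO and at or above 7.94 in every other sample.

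The other last genes of the clusters did not pass. Hoxa13, which with Hoxd13 patterns the end of the hindgut, read 7.63, 7.68 and 7.61 in WT and 7.50, 7.45 and 7.29 in IL10KO, which do not overlap; it differed by −0.23 ± 0.14 (SE; limma adjusted p = 0.308). Hoxd13 read 9.52, 9.60 and 9.09 in WT and 8.33, 9.35 and 8.75 in IL10KO. Its groups overlapped, and the difference was −0.59 ± 0.25 (SE; adjusted p = 0.148). Hoxc13, best known from hair and nail, read 4.68, 4.34 and 4.35 in WT and 4.22, 4.36 and 4.39 in IL10KO, a difference of −0.13 ± 0.17 (SE; adjusted p = 0.654). All 4 genes of group 13 had negative differences, of which that of Hoxb13 was called. Hoxa13, Hoxb13 and Hoxd13 lie above the median signal of all genes, where 7444 of 11090 genes had negative differences. Hoxc13 lies below it, where 2847 of 11090 did.

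Separation of the arrays gave the same picture as the test. In 11 of 36 members (30.6%) the 3 IL10KO samples lay wholly beyond the 3 WT samples, and 30% of all genes did so. Higher were Hoxb6, Hoxb7, Hoxc5, Hoxc8 and Hoxc12 (13.9% of members; 14% of all genes). Lower were Hoxa2, Hoxa3, Hoxa5, Hoxa6, Hoxa13 and Hoxb13 (16.7%; 16% of all genes). The higher group holds HoxB and HoxC genes and the lower group mostly HoxA genes. All of the higher group but Hoxc12 are central genes, and the lower group holds anterior, central and posterior genes.

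The direction of a member went with its signal. Of the 14 members above the median signal of all genes (5.55), 12 had negative differences in IL10KO against WT, with a median of −0.18; all genes above it had a median of −0.14. Of the 22 members below it, 18 had positive differences, with a median of 0.28, against 0.15 for all genes below it. Over all genes the median difference ran from 0.20 in the dimmest decile to −0.18 in the brightest. Of the HoxA members only Hoxa3 lies below the median signal, and all HoxC members do. Here 8 of 9 HoxA differences were negative (median −0.23) and 8 of 9 HoxC differences positive (median 0.39). The median was 0.14 for HoxB and 0.02 for HoxD. What part signal level has in the cluster difference was not tested.

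Under scalings that act on signal level, the medians of the brighter and dimmer members and of HoxA, HoxB and HoxC moved towards 0 and kept their sign, and that of HoxD moved away from 0. After cyclic loess normalization, added after the dependence on signal was seen, the brighter members had a median of −0.05 and the dimmer ones 0.15, and HoxA and HoxC had −0.10 and 0.26. The median of the posterior members, −0.09 as deposited, became 0.02 after quantile normalization and 0.07 after cyclic loess, and that of HoxD, 0.02, became 0.04 after quantile normalization, 0.07 after cyclic loess and −0.04 after median centring. Over all genes, 693 of 1805 called genes were higher in IL10KO as deposited and 842 of 1695 after cyclic loess. Hoxb6 and Hoxb13 were called under all 3 scalings, Hoxa6 after quantile normalization only.

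Against the median of its own decile of signal, Hoxb6 was higher by 0.65, Hoxb13 lower (−0.38) and Hoxa6 lower (−0.43). Hoxd13 stood at −0.41 from its decile, Hoxa13 at −0.07 and Hoxc13 at −0.25. Hoxc5, dim at 2.75 to 3.29 in WT, stood at 0.44.

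**Figure D4:**
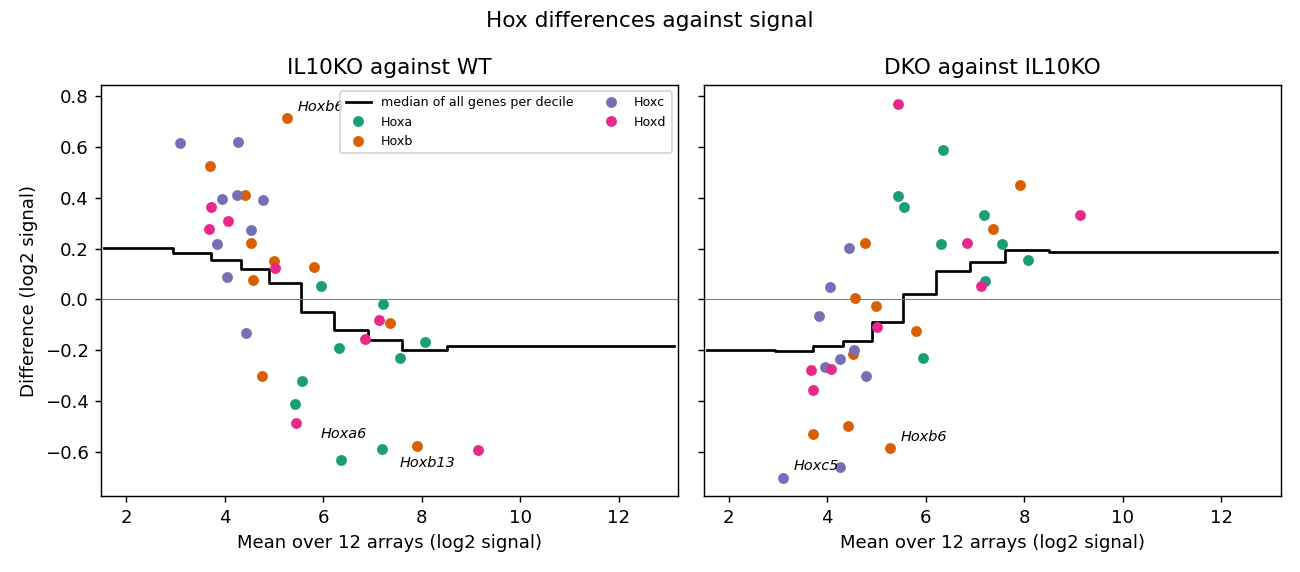
Difference in log2 signal (vertical axis) against mean log2 signal over 12 arrays (horizontal axis) for the 36 Hox genes, coloured by cluster, for both comparisons with the IL10KO samples; the black line is the median of all genes per decile of signal. Called genes are named, and the members scatter around a line that falls from 0.20 to −0.18 on the left and rises from −0.20 to 0.19 on the right.

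In DKO against IL10KO, where STING was missing as well, 2 of 36 members were called, and both were lower: Hoxb6 and Hoxc5. They are 5.56% of the set, beside 5.79% called over all genes and 2.45% called lower. An unadjusted p under 0.05 was reached by 9 members (25%) and 24.4% of all genes. This comparison uses the same IL10KO samples as the one before, so opposite signs in them share those arrays. Differences ranged from −0.70 (Hoxc5) to 0.77 (Hoxd12) with a median of −0.01, and −0.04 over all genes.

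Hoxb6 read 5.20, 5.30 and 4.99 in DKO, all below the lowest IL10KO sample (5.72). The difference was −0.59 ± 0.15 (SE; limma adjusted p = 0.0419), and adjusted p ranged from 0.016 to 0.115 over 21 alternatives, with 6 below the threshold. Hoxc5, a dim central gene of the HoxC cluster, read 2.99, 2.77 and 2.96 in DKO and 3.49, 3.30 and 4.05 in IL10KO. Its groups did not overlap, and IL10KO replicate 3 was highest. The difference was −0.70 ± 0.19 (SE; adjusted p = 0.0464); adjusted p ranged from 0.0198 to 0.158 over 20 alternatives, with 7 below the threshold, and was 0.13 without IL10KO replicate 3. In IL10KO against WT the same gene differed by 0.62 ± 0.19 (SE; adjusted p = 0.0611).

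Hoxb13 read 8.01, 7.95 and 7.94 in DKO, above all IL10KO samples, and its difference of 0.45 ± 0.13 (SE; limma adjusted p = 0.0601) missed the threshold. Hoxa6 (7.13, 7.18 and 7.15 in DKO) differed by 0.33 (0.229), Hoxa13 (7.81, 7.51 and 7.56) by 0.22 (0.343), Hoxc13 (4.57, 4.64 and 4.38) by 0.20 (0.487) and Hoxd13 (9.48, 9.07 and 8.88) by 0.33 (0.417). All 4 group 13 genes had positive differences here and negative ones in IL10KO against WT. Of all genes, 7493 of 11090 above the median signal and 2600 of 11090 below it had positive differences here. In 11 members (30.6%) the DKO and IL10KO samples did not overlap, and in 27.2% of all genes. Hoxa2, Hoxa3, Hoxa5, Hoxa6, Hoxa13, Hoxb13 and Hoxd12 were higher in DKO (19.4%; 13.4% of all genes) and Hoxb6, Hoxb7, Hoxc5 and Hoxc8 lower (11.1%; 13.8% of all genes).

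Again the sign went with signal. The 14 brighter members had a median of 0.22 (12 positive) and all genes above the median signal 0.14; the 22 dimmer ones had a median of −0.22 (16 negative) and all genes below it −0.17. After quantile normalization, median centring or cyclic loess no member was called in this comparison, while 5.74%, 5% and 5.16% of all genes were.

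With DKO set against WT, no Hox gene was called (0.0451% of all genes were, by limma with Benjamini-Hochberg adjustment), and 0 members had an unadjusted p under 0.05 (2.92% of all genes). Differences ran from −0.26 (Hoxd13) to 0.28 (Hoxd12). Smallest by p were Hoxa6 at −0.26 ± 0.16, Hoxb9 at 0.19 ± 0.14 and Hoxc12 at 0.17 ± 0.16 (SE; adjusted p = 1 each). Hoxa6 was the 1 member whose DKO samples lay wholly below WT (2.78%; 5.06% of all genes were lower in this way and 9.4% in either direction). Hoxb9 read 7.17, 7.47 and 7.43 in WT, 7.43, 7.08 and 7.33 in SKO, 7.42, 7.20 and 7.17 in IL10KO and 7.64, 7.57 and 7.42 in DKO, with every genotype overlapping another. Hoxc12 read 4.18, 4.10 and 3.99 in WT, 4.10, 4.30 and 4.09 in SKO, 4.85, 4.21 and 4.44 in IL10KO and 4.21, 4.17 and 4.42 in DKO. Without the library labelled WT replicate 3, 0 members and 0.311% of all genes were called (69 genes, against 10 with it), and 0 members and 3.09% of all genes had an unadjusted p under 0.05. The smallest p-values then belonged to Hoxd13 (−0.42 ± 0.27) and Hoxd12 (0.41 ± 0.30, SE), and Hoxa6 differed by −0.21 ± 0.19.

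Loss of STING alone (SKO against WT) called 0 members and 0% of all genes at the adjusted threshold; 0 members and 2.05% of all genes had an unadjusted p under 0.05. The 95% intervals bound how far the called genes of the first comparison could differ here: −0.25 to 0.42 for Hoxb6, −0.31 to 0.25 for Hoxb13 and −0.38 to 0.32 for Hoxa6. Hoxc8, a central gene, had the smallest p. It read 3.83, 4.10 and 4.14 in WT and 4.25, 4.82 and 4.22 in SKO, a difference of 0.41 ± 0.22 (SE; limma adjusted p = 1), and was the 1 member whose groups did not overlap (2.78%; 6.21% of all genes, and 3.75% in the higher direction). Hoxa3, a gene of thymus and parathyroid development, read 5.34, 5.41 and 5.65 in WT and 5.93, 5.44 and 5.87 in SKO (0.28 ± 0.16), and Hoxb7 read 3.39, 3.52 and 3.61 in WT and 3.58, 4.04 and 3.72 in SKO (0.27 ± 0.17). SKO replicate 2, where Hoxc8 and Hoxb7 were highest, is the SKO array with the narrowest spread of signals. Without the library labelled WT replicate 3, whose Sting1 signal was near that of the STING-/- samples, 55 genes (0.248%) and 0 members were called, and 0 members and 3.61% of all genes had an unadjusted p under 0.05. The differences then were 0.47 ± 0.25 for Hoxc8, 0.37 ± 0.18 for Hoxa3 and 0.32 ± 0.20 for Hoxb7 (SE). The intervals became −0.22 to 0.54 for Hoxb6, −0.41 to 0.25 for Hoxb13 and −0.40 to 0.42 for Hoxa6.

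Loss of IL-10 without STING (DKO against SKO) called 0 members and 0.0451% of all genes; 0 members and 4.77% of all genes had an unadjusted p under 0.05. Hoxc8 read 3.82, 4.10 and 4.01 in DKO, below all SKO samples, with a difference of −0.45 ± 0.22 (SE; limma adjusted p = 0.998); it was the 1 member without overlap (2.78%; 11.1% of all genes, and 6.28% in the lower direction). Hoxb9 differed by 0.26 ± 0.14 and Hoxa3, at 5.67, 5.5 and 5.23 in DKO, by −0.28 ± 0.16. Under array weights 3 members were called, Hoxa3, Hoxa6 and Hoxc13, along with 8.75% of all genes.

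Whether the effect of IL-10 loss differed with STING was tested as (DKO minus SKO) minus (IL10KO minus WT). No member passed (0.645% of all genes did, by limma with Benjamini-Hochberg adjustment), so a call in IL10KO against WT and none in DKO against SKO was not shown to differ for any Hox gene. Unadjusted, 5 members (13.9%) and 15.7% of all genes had p under 0.05. The smallest p-values belonged to Hoxc8 at −1.07 ± 0.30 (adjusted p = 0.143), Hoxb7 at −0.80 ± 0.24 (0.163) and Hoxb6 at −0.67 ± 0.22 (0.193). Their own effects were 0.62 for Hoxc8, 0.52 for Hoxb7 and 0.71 for Hoxb6 with STING, and −0.45, −0.28 and 0.04 without it. In IL10KO Hoxc8 read 5.15, 4.32 and 4.45 and Hoxb7 4.03, 3.77 and 4.30; Hoxb7 read 3.34, 3.72 and 3.45 in DKO. When the fit omitted the library labelled WT replicate 3, 0 members and 0.757% of all genes passed; the share was 0.329% without WT replicate 1 and 0.23% without WT replicate 2.

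In both comparisons with the IL10KO samples, leaving out single arrays moved the number of called members further than any scaling did. In IL10KO against WT it was 0 without WT replicate 1 (4.48% of all genes called) or WT replicate 2 (3.53%). It was 1 (Hoxb6) without IL10KO replicate 1 (5.43%), and 2 (Hoxb6 and Hoxb13) when the library labelled WT replicate 3 was omitted. Omitting IL10KO replicate 2 gave 9: Hoxa5, Hoxa6, Hoxb6, Hoxb7, Hoxb13, Hoxc5, Hoxc8, Hoxc12 and Hoxd13. The share of all genes called rose with it, to 13.8%, and was 4% in the fit that omitted the library labelled WT replicate 3. In DKO against IL10KO 5 members were called without IL10KO replicate 2 (10.6% of all genes): Hoxb7, Hoxb13, Hoxc5, Hoxc8 and Hoxd12. Without the library labelled WT replicate 3, 1 (Hoxc5) was called (4.97% of all genes).

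Transcripts and regulators around the clusters were read from lists chosen with results of these data known. The share called over all genes was 8.14% in IL10KO against WT and 5.79% in DKO against IL10KO. Of 21 listed noncoding and neighbouring genes of the clusters, 8 had a probe set of their own. Hotair, a long noncoding RNA of the HoxC cluster, rose in IL10KO against WT: 4.08, 4.12 and 4.23 in WT and 4.82, 4.55 and 4.78 in IL10KO, by 0.57 ± 0.14 (SE; limma adjusted p = 0.0214), without overlap. In DKO it read 4.24, 4.20 and 4.26 (−0.49 against IL10KO, adjusted p = 0.0516). The other 7, with median differences of 0.24 for the list in IL10KO against WT and −0.24 in DKO against IL10KO, were not called. Hotair was not called without WT replicate 1 (0.0746), WT replicate 2 (0.0749), IL10KO replicate 1 (0.0615) or IL10KO replicate 3 (0.062).

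The microRNA genes shown above gave host or precursor signal, not mature miRNA. Mir196a-1 of the HoxB cluster read 7.37, 7.64 and 7.53 in WT and 6.75, 7.06 and 7.64 in IL10KO; it differed by −0.36 (limma adjusted p = 0.324). Mir196a-2 of the HoxC cluster, with the same mature sequence, read 3.67, 3.73 and 3.61 in WT and 4.56, 4.32 and 3.93 in IL10KO, a difference of 0.60 (adjusted p = 0.12). The 2 loci had opposite signs, as the bright and dim Hox genes did. Mir10b read 1.78 to 2.79 over the WT and IL10KO samples and differed by 0.20 (adjusted p = 0.573).

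Among the TALE cofactors, 0 of 10 measured genes were called in either comparison with the IL10KO samples; Meis1 differed by −0.51 and 0.61. Of 20 factors that set gut regions, Hnf4a, a nuclear receptor of the epithelium, fell in IL10KO against WT (−0.60, adjusted p = 0.0184) and 0 passed in DKO against IL10KO. Hnf4a was not called without WT replicate 1 or 2 or IL10KO replicate 3 (0.0621, 0.0741 and 0.064), and 4 of the 20 were called without IL10KO replicate 2. The hindgut factors Cdx1 (0.32, 0.218) and Cdx2 (−0.45, 0.415), which activate Hox genes, were not called in IL10KO against WT. Cdx2 read 8.18, 6.61 and 8.05 in IL10KO, with replicate 2 lowest, and 7.85, 7.93 and 8.42 in WT.

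Polycomb and Trithorax complexes hold Hox clusters silent or active. Of 19 Polycomb genes (10.5% called, beside 8.14% of all genes), Phc3 fell (−0.75 ± 0.16 SE; limma adjusted p = 0.0121) and Cbx7, a reader of the silencing mark, rose (0.77 ± 0.20; 0.0297) in IL10KO against WT, and Phc3 rose in DKO against IL10KO (0.67; 0.0257). The Cbx7 value in the library labelled WT replicate 3 (6.97) lay above WT replicates 1 and 2 (6.24 and 6.20) and near the STING-/- samples (6.80 to 7.20). Of 12 Trithorax and MLL genes, 3 fell in IL10KO against WT (25%, beside 5.01% of all genes): the methyltransferase gene Kmt2c (−0.72; 0.0265), Men1 (−0.47; 0.0294) and Rbbp5 (−0.57; 0.0331). The remaining 9 were not called, and 0 of 12 passed in DKO against IL10KO. The Trithorax list is bright, with means of 7.28 to 7.90 over the arrays. Of the 11090 genes above the median signal, 1023 were called lower in IL10KO against WT. The Trithorax count in IL10KO against WT was 0 without WT replicate 1, WT replicate 2 or IL10KO replicate 1, 1 without IL10KO replicate 3 or the library labelled WT replicate 3, and 6 without IL10KO replicate 2. The Polycomb count was 1 without any single WT sample or IL10KO replicate 3. The list medians in IL10KO against WT were −0.18 for Polycomb and −0.42 for Trithorax, beside −0.14 for all genes above the median signal.

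Retinoic acid genes had the largest values of these lists. In IL10KO against WT 23.5% of the list was called, beside 8.14% of all genes. Of 17 measured, Aldh1a3 and Rdh10, enzymes of the path that leads to retinoic acid, and Crabp2, which carries it, rose in IL10KO against WT. Aldh1a1, also an enzyme of that path, fell. Aldh1a3 read 6.83, 6.82 and 6.65 in WT, 8.51, 10.46 and 9.08 in IL10KO and 6.60, 6.32 and 6.25 in DKO (2.59 ± 0.34 SE, limma adjusted p = 0.000796; −2.96 in DKO against IL10KO, 0.000368). Crabp2 differed by 1.64 (0.00172) and −1.51 (0.00337). In DKO against IL10KO the same 4 genes passed with the signs turned, and 13 passed in neither. Crabp2 and Aldh1a3 are also expressed in stratified epithelium, whose markers moved with them as given below.

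Markers of colon position outside the Hox clusters were set beside them. Over all genes, 3.12% were called higher and 5.01% lower in IL10KO against WT. Of 7 measured genes of distal colon epithelium, Insl5, a hormone of distal enteroendocrine cells, fell in IL10KO against WT (9.34, 9.23 and 9.68 in WT; 7.81, 8.0 and 8.67 in IL10KO; −1.25 ± 0.21 SE, limma adjusted p = 0.00328). Scnn1a, an epithelial sodium channel subunit, fell too (9.82 to 10.03 in WT and 9.18 to 9.30 in IL10KO; −0.70 ± 0.12, 0.00485). The other measured subunits of that channel had positive differences that did not pass, Scnn1g at 1.12 (0.067) and Scnn1b at 0.50 (0.232), as did the ion transport regulator Fxyd4 at 0.46 (0.104). Without IL10KO replicate 3, 4 of the 7 were called. Insl5 and Scnn1a rose in DKO against IL10KO (1.40, 0.00202; 0.72, 0.00499), where Fxyd4 fell (−0.76, 0.0188). The mean of the 7 genes was 8.85 to 9.0 in WT and 8.66 to 9.02 in IL10KO, which overlapped. Of 15 small intestine genes, Slc10a2 and Lyz1 rose in IL10KO against WT and the other 13 were not called; Lyz1 is also a lysozyme of Paneth cells. Of 9 stomach genes, 0 were called.

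Markers of other cell types moved with the IL10KO samples. Over all genes, 3.12% were called higher and 5.01% lower in IL10KO against WT. Of the 11090 genes above the median signal, 1023 were called lower there. In DKO against IL10KO 5.79% of all genes were called. The 16 smooth muscle genes, a tissue in which colon Hox genes are active, had 13 lower in IL10KO against WT (median −0.85) and 13 higher in DKO against IL10KO (median 0.85; 8 without DKO replicate 1). Their mean was 8.5 to 8.82 in IL10KO and 9.36 to 9.73 in all other samples. Of 15 enteric neuron and glia genes, 5 were lower and 0 higher in IL10KO (means of 5.41 to 5.56, against 5.85 to 6.11 elsewhere). Colon epithelium had 5 of 17 lower, or 3 without WT replicate 1 (10.66 to 10.81, against 11.05 to 11.28), while fibroblast markers, with means of 9.07 to 9.49 over all samples, had 2 higher and 1 lower of 16.

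Markers of tissues outside the colon wall differed as well. Stratified squamous and sebaceous markers, as found in anal skin, were higher in IL10KO for 17 of 22 genes, with means of 5.06, 6.78 and 6.85, against 4.16 to 4.18 in WT, 4.11 to 4.37 in SKO and 4.91 in DKO replicate 3. Skeletal muscle markers were higher for 11 of 14, with means of 5.55, 6.27 and 7.30, against 4.75 to 4.88 in WT and 5.66 and 5.77 in DKO replicates 1 and 3. Single omissions lowered the skeletal muscle count to 2 (WT replicate 1), 3 (WT replicate 2), 5 (the library labelled WT replicate 3) and 4 (IL10KO replicate 3), and either of the last 2 lowered the squamous count to 11. Hair follicle genes had 0 of 15 called. Pancreatic acinar genes averaged 8.89 and 11.36 in WT replicates 1 and 2 and at most 5.94 elsewhere. Neutrophil genes had 10 of 14 higher in IL10KO (5.70 to 6.81, against 4.33 to 4.52 elsewhere).

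**Figure D5:**
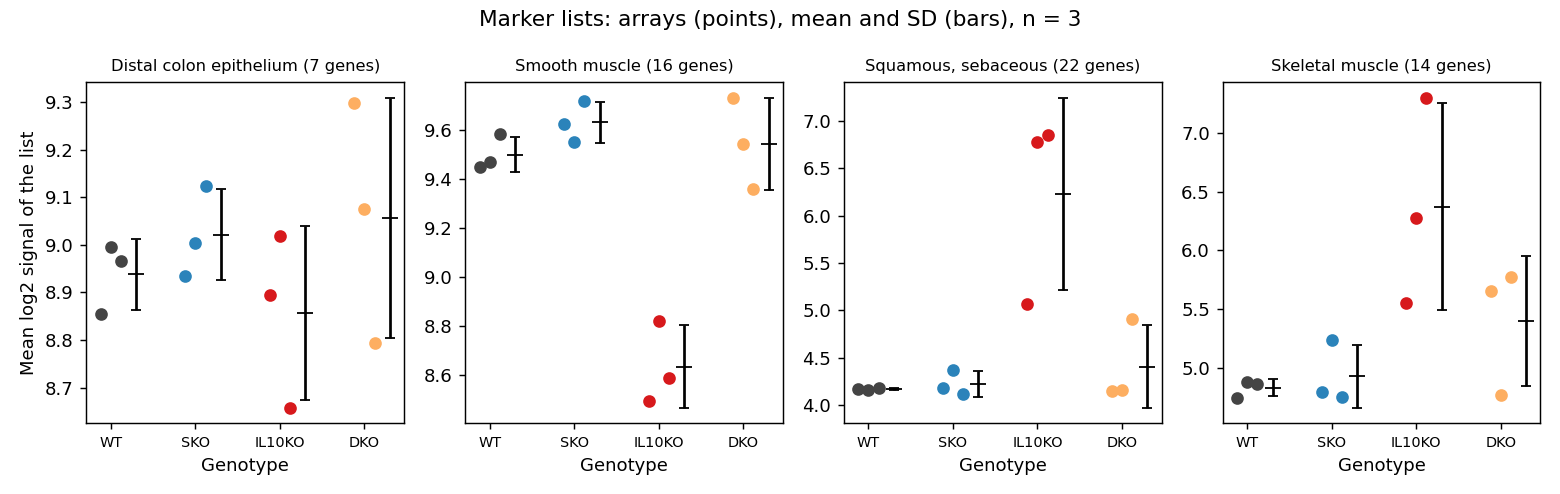
Mean log2 signal of marker lists (vertical axes, not starting at 0) in the 4 genotypes; points are arrays, bars the mean and SD, n = 3. The 3 IL10KO samples are the lowest for smooth muscle and the highest for stratified squamous and sebaceous genes; for skeletal muscle IL10KO replicates 2 and 3 are highest, and IL10KO replicate 1 (5.55) lies below DKO replicates 1 and 3 (5.66 and 5.77).

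The part these tissues have in the Hox differences was not tested. In IL10KO replicates 1, 2 and 3 the average distance of the Hox members from their own means, taken without sign, was 0.41, 0.18 and 0.28. In the same order the smooth muscle mean was 8.5, 8.82 and 8.59, the neutrophil mean 5.70, 6.81 and 6.22, the squamous and sebaceous mean 5.06, 6.78 and 6.85, and the skeletal muscle mean 5.55, 6.27 and 7.30.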

How the data were processed

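The authors deposited log2 signals; the submitters' processing notes name Affymetrix Expression Console 1.3.1.187. The sources used here give no normalization method, detection calls or build, and the log2 scale was read from the range of the values. Per the labels' protocols, 300 ng of total RNA per sample were labelled with the WT PLUS kit. Of 41345 probe sets, 23521 had 1 platform symbol; the brightest per gene gave 22180 genes. All 12 arrays were fitted with limma 3.58.1 (R 4.3.3), a mean per genotype, 8 residual and 5.56 prior degrees of freedom, 2-sided moderated tests and Benjamini-Hochberg adjustment over all genes. The depth of an array has no read count; the number of arrays limits the precision. Named were members called in any comparison, the 3 smallest p where fewer than 3 were called, the last gene of each cluster, and up to 2 called genes per list and comparison with the smallest p; Rbbp5, Rdh10, Aldh1a1, Fxyd4, Scnn1b, Scnn1g, Slc10a2, Lyz1, Meis1, Mir10b, Mir196a-1, Mir196a-2, Cdx1 and Cdx2 were named after their values were seen. The members and lists were chosen with earlier results of these data known. In simulated data for IL10KO against WT, a step of log2 1 was recovered in 62% of 100 genes and a step of log2 2 in 99% of 100. There were 10 false calls among 22180 genes. The simulated noise was independent between genes and held no shift of an array by signal level. Smaller steps were not simulated, and the largest member difference in that comparison was 0.71, so recovery at the members' sizes is not known.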

Additional observations from a re-analysis of the deposited data

Results flagged for a closer look

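Among the genes named, 3 differed in the effect of IL-10 loss between STING genotypes, as did 0.645% of all genes. The test was an interaction in limma with Benjamini-Hochberg adjustment over all genes. For Aldh1a3 the difference was −2.78 ± 0.48 (SE; adjusted p = 0.0197), from an effect of 2.59 with STING and −0.19 without. For Crabp2 it was −1.80 ± 0.34 (SE; adjusted p = 0.0337), from 1.64 and −0.16. For Lyz1, a lysozyme, it was −2.13 ± 0.31 (SE; adjusted p = 0.00857), from 2.30 and 0.17. The first 2 are retinoic acid genes, and no Hox gene passed. In the marker lists, 5 of 14 neutrophil genes and 2 of 16 smooth muscle genes also passed. So did 2 of 17 colon epithelium genes and 1 of 15 pancreatic acinar genes, and 0 of 22 squamous and sebaceous genes. Markers of stratified epithelium and of neutrophils were high in the same IL10KO samples, and their part in the result was not tested.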

How the results depend on the processing

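Of the counts of Hox genes called, the 3 of IL10KO against WT and the 2 of DKO against IL10KO moved most. Leaving out 1 array at a time gave 0 to 9 for the first (3.53% to 13.8% of all genes called). For the second it gave 0 to 5 (1.92% to 10.6% of all genes). The first was 1 (4.57% of all genes) with 3 arrays left out together. These were the library labelled WT replicate 3, IL10KO 1 and SKO 2, chosen after the arrays were compared. With only the genotypes compared the first was 1 (3.17%). The second was 0 after quantile normalization (5.74% of all genes), median centring (5%) or cyclic loess (5.16%, added after seeing the data). It was 0 with only the genotypes compared (2.2%), 1 under array weights (6.12%) and 1 with those 3 arrays left out (4.98%). Under array weights DKO against SKO called 3 (8.75% of all genes) and the interaction of IL-10 and STING 1 (Hoxb6, 3.32% of all genes). The posterior minus anterior difference for that interaction, 0.09, was −0.13 with the 3 arrays left out; over single omissions IL10KO against WT ran from −0.18 to 0.07 and DKO against IL10KO from −0.04 to 0.22. No called member changed sign in any setting run. The causes were not tested. Fewer arrays also leave fewer degrees of freedom, and the part of this in the counts was not tested. Depth has no count here, and dim probe sets such as Hoxc5 carry no detection call. No paired analysis was possible because replicate numbers were given in accession order and pair nothing.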

Other observations

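Probe sets with several symbols, left out of the member set, named Hoxa11 and Hoxd4. The brighter probe set shared by Hoxa11 and Hoxa11os read 7.62, 7.87 and 8.06 in WT, 8.06, 7.76 and 7.68 in SKO, 7.31, 7.46 and 7.71 in IL10KO and 7.79, 7.61 and 7.58 in DKO, and the dimmer one 5.51 to 6.22 over all samples. The probe set shared by Hoxd4 and Hoxd3 read 4.4 to 5.32. Hoxb5 had 2 probe sets of its own, which differed in sign in DKO against IL10KO (−0.13 for the brighter, 0.09 for the other) and had the same sign in IL10KO against WT (0.13 and 0.07); neither was called.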
